A study of Mus musculus with 32 samples.

Results

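The genes described here are a set of 33 mouse genes whose transcription is raised by type I interferon. They were taken from a fixed list of symbols, each gene being read from a probe set that carries its symbol alone, and where several such probe sets exist the brightest on average over the 32 arrays was to be used. Of the 33 genes 31 were measured in this way, each by a single probe set, among 19938 genes in all, and Isg15 and Ifi44 were not analysed here. The study implanted BAL17, a B cell lymphoma line from BALB/c mice, or BAL17VII, a line derived from it, into the brains of wild-type BALB/c mice as a model of lymphoma of the central nervous system. Each implanted mouse received 500000 cells, and whole brains were taken at day 21 after BAL17 (5 brains), at day 21 after BAL17VII (5 brains) and at day 28 after BAL17 (5 brains). Control mice received PBS and their whole brains were taken at day 28 (5 brains), so the day 21 groups have no control of their own day. Cultured BAL17 cells (6 arrays) and cultured BAL17VII cells (6 arrays) complete the 6 groups. The labels name no engineered allele in the mice or the cells, and each line is represented by itself alone.

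Type I interferons are cytokines made when a cell detects foreign or misplaced nucleic acid. They bind a receptor on the same or neighbouring cells, whose kinases pass the signal to transcription factors. STAT2 and IRF9 act in a complex that binds the interferon-stimulated response element upstream of the genes described here. Many of their products sense RNA, degrade it or block its translation, and others, such as ISG15 and its enzymes, modify proteins. B cells, microglia and macrophages all respond to interferon, so in a whole brain these genes can come from the implanted cells, from the host tissue or from both.

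All values are log2 of the deposited array intensity, and differences are log2 fold changes with the standard error (SE) of limma. A difference of 1 is a doubling. A gene was called at a Benjamini-Hochberg adjusted p under 0.05 over all 19938 genes. Correlations between arrays of a group lay between 0.9789 and 0.994, and array medians lay between 81.7 and 93.0 on the intensity scale. The labels do not say that the arrays of a cultured line came from separate cultures, so p-values measure the spread between these samples. Lines and brains carry different array series in the labels and their levels are set side by side without a test. B lineage markers had a mean of 9.29 in BAL17 cells, 9.39 in BAL17VII cells and 6.27 in PBS brains. Implanted brains lay between these levels, at 7.94 for BAL17 at day 21, 7.21 for BAL17VII at day 21 and 8.05 for BAL17 at day 28. Replicate 1 of the BAL17VII brains stood at the level of the PBS brains, with 6.13 for the B lineage markers and 5.52 for 9 genes of mitosis (PBS mean 5.50), and the other 4 BAL17VII brains lay between 7.18 and 7.79 for the B lineage markers. The counts and main values for BAL17VII brains are given with and without it.

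Cultured BAL17VII cells had the highest levels of the interferon response genes among the 6 groups. The mean over the 31 genes was 7.71 ± 0.08 (SD, n = 6) in BAL17VII cells and 6.49 ± 0.05 (n = 6) in BAL17 cells. It was 6.48 ± 0.16 (n = 5) in BAL17 brains at day 21, 6.48 ± 0.26 (n = 5; 6.56 ± 0.19 over 4 brains without replicate 1) in BAL17VII brains at day 21, 6.31 ± 0.11 (n = 5) in BAL17 brains at day 28 and 6.10 ± 0.03 (n = 5) in PBS brains. BAL17VII cells were the group with the highest mean for 27 of 31 genes. The exceptions were Zbp1, highest in BAL17 brains at day 21, and Ifit2, Ifit3 and Oasl2, highest in BAL17VII brains. PBS brains had the lowest mean for 17 genes, BAL17 cells for 10 and BAL17 brains at day 28 for 4. In PBS brains 15 of the 31 genes exceeded the array median on no array, where 38.9% of all genes did not. In BAL17VII cells this held for 3 of the 31, where it held for 41.1% of all genes. A level below the median is not a measured absence, since the deposited values carry no detection call.

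**Figure D1:**
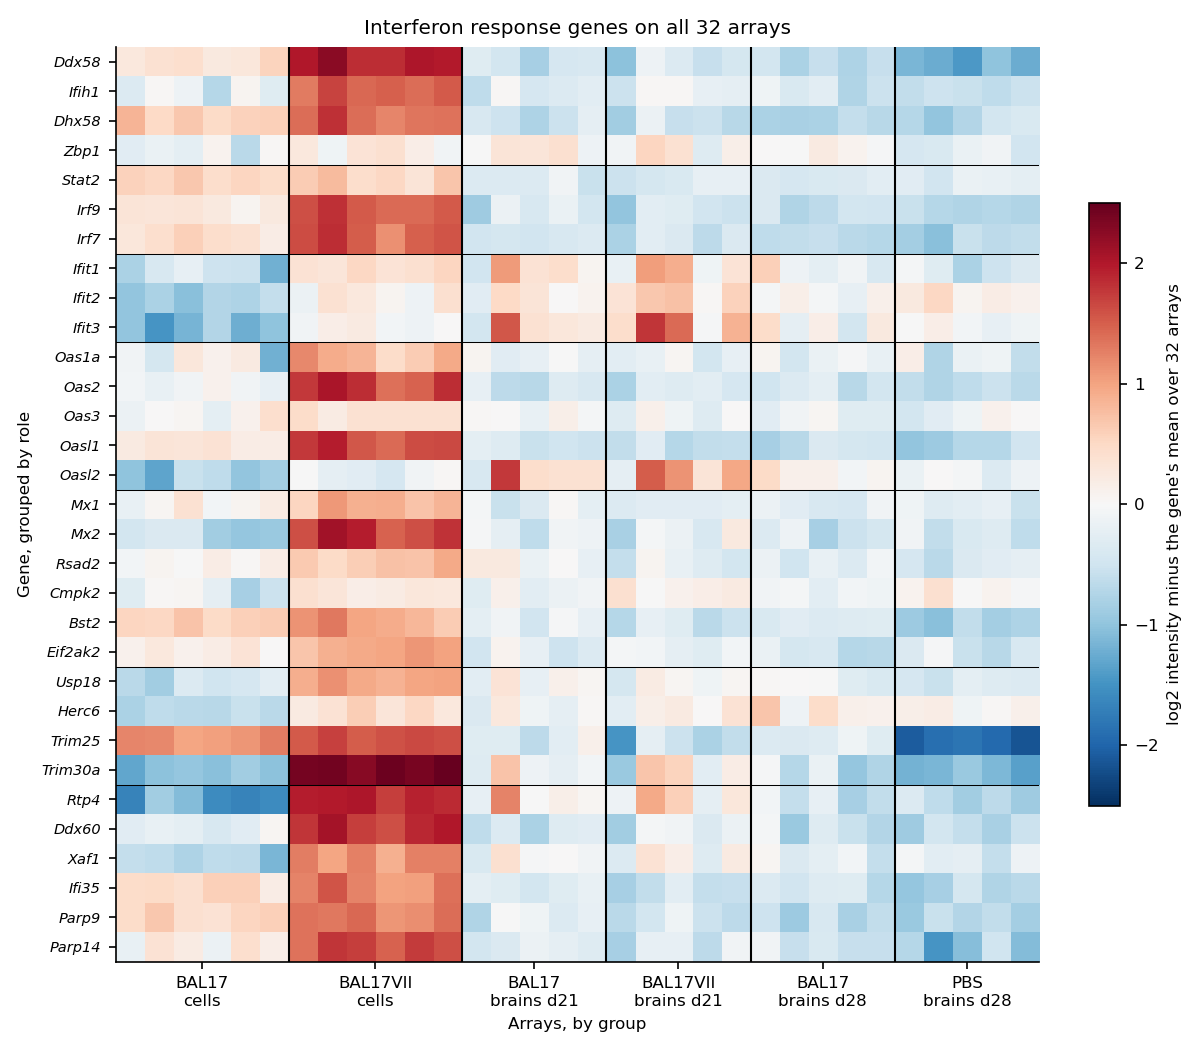
The 31 interferon response genes (rows, grouped by role) on the 32 arrays (columns, grouped as labelled), as log2 intensity minus the mean of each gene over all arrays. Red is above and blue below that mean, and the 6 BAL17VII cell arrays are red for most genes.

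In culture, 29 of 31 interferon response genes were higher in BAL17VII than in BAL17 cells and none was lower, where 8.48% of all genes were called higher and 6.93% lower (limma, Benjamini-Hochberg). The median difference over the 31 genes was 1.02, and over all genes tested it was -0.01. Of the 29 genes 17 rose by at least a doubling, and for 27 genes the 6 arrays of each line did not overlap, as for 6.15% of all genes. No member was lower without overlap, where 4.57% of all genes were. The genes not called were Stat2 (0.03 ± 0.08) and Zbp1 (0.37 ± 0.13, adjusted p = 0.0671 by limma). Oas3 and Bst2 were called with overlapping arrays, and the call of Oas3 was lost in 8 of 20 alternative fits.

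Trim30a, a member of the tripartite motif family (probe set 10566358), had the largest difference. Its lowest, median and highest values were 6.17, 6.45 and 6.62 in BAL17 cells and 9.75, 9.88 and 9.98 in BAL17VII cells. The difference of 3.44 ± 0.08 (adjusted p = 2.59e-13, limma) is 10.8-fold, and the ranges lie far apart. Rtp4, a chaperone-like transmembrane protein, ran from 5.40 through 5.50 to 6.21 in BAL17 cells and from 8.80 through 9.02 to 9.10 in BAL17VII cells. It was 9.98-fold higher (3.32 ± 0.13, adjusted p = 1.47e-10, limma). The lowest BAL17VII array stood above every BAL17 array for both genes.

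Mx2, a gene of the dynamin-like GTPase family, ran from 4.62 through 4.93 to 5.22 in BAL17 cells. In BAL17VII cells it ran from 7.07 through 7.30 to 7.69, a difference of 2.42 ± 0.14 (adjusted p = 7.26e-09, limma). Its relative Mx1 differed by 0.75 ± 0.11 between levels that were low in both lines (4.38 and 5.13). Ddx60, a helicase that aids RNA sensing, ran from 5.61 through 5.76 to 6.07 and from 7.63 through 7.85 to 8.10 (2.07 ± 0.09, adjusted p = 5.34e-10, limma). Xaf1, which binds the apoptosis inhibitor XIAP, ran from 5.93 through 6.43 to 6.47 and from 7.96 through 8.33 to 8.35 (1.89 ± 0.10, adjusted p = 5.12e-09, limma). For Mx2, Ddx60 and Xaf1 the nearest arrays of the lines lay more than 1 log2 unit apart, and for Mx1 they lay close together, at 4.69 and 4.84.

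The rise covered each role, though not evenly. Of the 4 sensors, Ddx58, which encodes RIG-I (1.64 ± 0.08), Ifih1, which encodes MDA5 (1.71 ± 0.12), and Dhx58 (0.82 ± 0.10) rose. Among the transcription factors, Irf9 (1.30 ± 0.08) and Irf7, which drives interferon alpha genes (1.15 ± 0.10), rose, and Stat2 stood at 8.29 in BAL17 and 8.32 in BAL17VII cells. All 3 Ifit genes, whose products bind foreign RNA, rose by 0.95 to 1.12. All 5 genes of the Oas family, whose active enzymes make the activator of RNase L, rose, from 0.33 for Oas3 to 1.81 for Oas2. Among the other effectors, Rsad2 (viperin), Cmpk2, Bst2 (tetherin) and Eif2ak2 (the kinase PKR) rose by 0.39 to 0.77. Usp18, which strips ISG15 from proteins and damps the receptor, rose by 1.49 ± 0.10, the ISG15 ligase Herc6 by 1.05 ± 0.08 and Trim25, a ubiquitin ligase of the RIG-I pathway, by 0.46 ± 0.07. Parp14 (1.48 ± 0.12), Parp9 (0.80 ± 0.08) and Ifi35 (0.79 ± 0.10) rose as well. The Ifit, Oas and Trim30 genes have close relatives, and probes shared among these leave their single values uncertain.

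Genes on the marker lists moved with this difference in part. Of 11 monocyte and macrophage genes 3 were higher in BAL17VII cells, and the summed intensity of the list was 941 to 1028 in BAL17 cells and 2531 to 2985 in BAL17VII cells. Of these 11 genes 9 exceeded the array median on no BAL17VII array, Lyz2, the lysozyme of these cells, differed by -0.20 ± 0.17, and the largest rise was that of the oxidase gene Cybb (2.95), named after its value was seen. Of 9 B lineage markers 3 were higher and 1 lower, and of 9 mitosis genes 5 were lower. Their part in the result was not tested.

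Promoter windows are shown for 6 members, chosen after their values and matches were seen, to give examples with and without a match among genes described here. They come from RefSeq on build GRCm38.p6, the C57BL/6J reference and not the BALB/c genome of these mice. Each run gives the 160 bases before the annotated start, 5′ to 3′ on the strand of the gene. Capitals mark matches to GAAANNGAAA, a core of the interferon-stimulated response element, or to its opposite strand TTTCNNTTTC, and matches may overlap. Trim30a and Ddx60 rose among the most in BAL17VII cells, Ifit1 and Ifit3 varied widely among brains, and Bst2 and Trim25 were higher in BAL17 brains at both days. Trim25 is shown as a window without a match. Rtp4, Mx2 and 7 other members had no window. Xaf1 had one without a match. A further annotated start of Trim30a had no match in the 160 bases before it, and 1 match elsewhere in the wider window searched.
Trim30a (chr7:104465194-104465353, minus strand): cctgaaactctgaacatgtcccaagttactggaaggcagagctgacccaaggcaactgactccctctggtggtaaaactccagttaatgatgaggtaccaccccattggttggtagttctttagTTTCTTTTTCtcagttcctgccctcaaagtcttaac
Ddx60 (chr8:61927927-61928086, plus strand): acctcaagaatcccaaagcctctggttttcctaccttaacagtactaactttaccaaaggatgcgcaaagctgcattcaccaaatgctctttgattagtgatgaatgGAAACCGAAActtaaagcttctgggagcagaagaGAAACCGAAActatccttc
Ifit1 (chr19:34640729-34640888, plus strand): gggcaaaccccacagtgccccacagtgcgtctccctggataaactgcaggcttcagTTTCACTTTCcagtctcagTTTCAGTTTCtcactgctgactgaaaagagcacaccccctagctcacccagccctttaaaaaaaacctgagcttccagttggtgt
Ifit3 (chr19:34583369-34583528, plus strand): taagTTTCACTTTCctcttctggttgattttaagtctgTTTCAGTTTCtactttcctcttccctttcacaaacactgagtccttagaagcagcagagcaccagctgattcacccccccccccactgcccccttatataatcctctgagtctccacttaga
Bst2 (chr8:71537473-71537632, minus strand): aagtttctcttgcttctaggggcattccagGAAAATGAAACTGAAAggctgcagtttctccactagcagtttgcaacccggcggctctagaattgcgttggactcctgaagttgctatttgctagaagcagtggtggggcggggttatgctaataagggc
Trim25 (chr11:88999243-88999402, plus strand): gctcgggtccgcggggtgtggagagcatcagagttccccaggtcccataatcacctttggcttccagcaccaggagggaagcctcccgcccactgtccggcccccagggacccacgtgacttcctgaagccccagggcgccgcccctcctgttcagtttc

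The search used windows from 250 bases before to 50 after the start, of which 3.44% of 32851 held a match on either strand. Of the 31 genes 22 had a window, and 12 of these held a match: Ddx58, Ifih1, Stat2, Ifit1, Ifit3, Oas1a, Oas3, Rsad2, Bst2, Eif2ak2, Trim30a and Ddx60. By gene the share was 3.99% of 27025. In Ifit1 the matches began 104 and 85 bases before the start, and in Ifit3 they began 156 and 122 bases before it. The Trim30a match began 36 bases before the start, and those of Ddx60 began 53 and 19 bases before it. The overlapping matches of Bst2 began at 130 and 124 bases. The median difference between the cultured lines was 1.014 for the 12 genes with a match and 0.999 for the 10 without. Stat2, which held a match, was not called. A match is a description of these letters and not evidence of binding, and the search says nothing about other forms of the element.

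The genes of the pathway around this set were taken from lists of ligands, receptors, regulators and further induced genes. Of 10 interferon genes measured none was higher in BAL17VII cells, and interferon gamma (Ifng) was lower by 0.37 (adjusted p = 0.0127, limma). Ifnb1 differed by -0.04 ± 0.11 and Ifna4 by -0.11 ± 0.12, and neither was called in any comparison. The mean over the 10 interferon genes was low, at 5.85 in BAL17 cells and 5.74 in BAL17VII cells. At such levels these values, that of Ifng among them, do not show whether interferon itself differed. Of 7 receptor and kinase genes 5 were higher, led by the kinase Jak2 (1.22 ± 0.08), Ifngr2 (0.64 ± 0.08) and Ifngr1 (0.46 ± 0.08). Ifnar2, a chain of the type I receptor, rose by 0.40 ± 0.06 and the other chain, Ifnar1, differed by 0.06 ± 0.09. Of 13 genes that induce interferon 5 rose, led by Sting1, the adaptor of DNA sensing (1.40 ± 0.11), Myd88, the adaptor of Toll-like receptors (0.69 ± 0.08), and Irf1 (0.58 ± 0.08). Irf3 differed by -0.19 ± 0.10. Of 5 negative regulators only Ptpn6 was called, at 0.38 ± 0.07, and Socs1 differed by -0.10 ± 0.10. Of 44 further interferon-induced genes 34 rose and none fell, led by Slfn8 (3.21 ± 0.13), Slfn5 (3.05 ± 0.12) and Ifi27 (2.13 ± 0.09).

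In BAL17 brains at day 21, 14 of 31 interferon response genes were higher than in PBS brains and none was lower, where 11% of all genes were called higher and 18.8% lower (limma, Benjamini-Hochberg). The median difference was 0.31, against 0.00 over all genes tested (range of the 31 genes -0.25 to 1.69). For 8 genes the groups did not overlap, as for 7.01% of all genes. Only Trim25 and Trim30a rose by a doubling or more. In bulk tissue, fewer cells of a type and less RNA per cell cannot be told apart. The day 21 and PBS brains also differ in the day they were taken, which cannot be told apart from the implant.

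Trim25 had the largest rise. The day 21 BAL17 brains read 7.70, 7.71, 7.36, 7.74 and 8.13, and the PBS brains read 5.94, 6.14, 6.18, 6.07 and 5.86. The difference was 1.69 ± 0.16 (adjusted p = 8.74e-08, limma), and the lowest implanted brain stood more than 1 log2 unit above the highest control. The cultured cells read higher still, with means of 9.15 in BAL17 and 9.61 in BAL17VII cells.

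Trim30a read 7.16, 8.21, 7.36, 7.26 and 7.41 in the day 21 BAL17 brains and 6.31, 6.34, 6.56, 6.35 and 6.12 in the PBS brains (1.14 ± 0.24, adjusted p = 0.000999, limma). Rtp4 read 6.87, 8.31, 7.08, 7.22 and 7.12 against 6.74, 6.45, 6.22, 6.43 and 6.20 (0.92 ± 0.23, adjusted p = 0.00393, limma). For both genes replicate 2 stood apart above the other 4 implanted brains, which in turn lay above every PBS brain. Ddx58 read 7.30, 7.16, 6.78, 7.18 and 7.20 against 6.45, 6.36, 6.18, 6.60 and 6.37 (0.73 ± 0.13, adjusted p = 0.000181, limma). Parp14, an ADP-ribosyltransferase family member, read 6.41, 6.51, 6.72, 6.63 and 6.55 against 6.16, 5.40, 5.80, 6.37 and 5.79 (0.66 ± 0.16, adjusted p = 0.00258, limma). The control brains were more scattered than the implanted ones for Parp14, and the nearest values differed by less than 0.05.

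By role, the called genes were spread over all classes. They comprised 2 of 4 sensors (Ddx58 and Zbp1, a sensor of Z-form nucleic acid, 0.48 ± 0.13), 1 of 3 transcription factors (Irf7, 0.31 ± 0.10), 1 of 3 Ifit genes (Ifit1, 0.69 ± 0.25, a call lost in 11 of 19 alternatives) and 1 of 5 Oas genes (Oasl1, 0.33 ± 0.11). Bst2 (0.63 ± 0.10) and Rsad2 (0.42 ± 0.12) were called among 6 other effectors. Usp18 (0.39 ± 0.12) joined Trim25 and Trim30a among 4 genes of ubiquitin-like modification, and Ifi35 (0.44 ± 0.11) and Parp9 (0.45 ± 0.13) joined Rtp4 and Parp14 among the remaining 6. Mx2 (0.19 ± 0.16), Ddx60 (0.18 ± 0.16) and Xaf1 (0.23 ± 0.15), which differed strongly between the cultured lines, were not called. Cmpk2, a mitochondrial nucleotide kinase, differed by -0.25 ± 0.10 (adjusted p = 0.0568, limma) and was called lower under other scalings of the arrays. Of the 14 calls 9 held under every alternative in which the gene was tested.

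In BAL17VII brains at day 21, 4 interferon response genes were called higher than in PBS brains and none lower, where 2.05% of all genes were called higher and 0.647% lower (limma, Benjamini-Hochberg). The median difference was 0.25, against -0.01 over all genes, and 30 of the 31 differences were above 0. A further 12 genes had an unadjusted p under 0.05 without being called. The share of all genes was not taken for this count or for the differences above 0. Without replicate 1 the count was 10, where 2.77% of all genes were called higher, and the median difference was 0.33. Without replicate 4 the count was 9, and without replicate 2 it was 3. The share of all genes was not taken for the fits without replicate 4 or replicate 2.

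Trim25 read 6.54, 7.79, 7.47, 7.23 and 7.40 in the BAL17VII brains, all above the PBS brains (1.25 ± 0.16, adjusted p = 0.000253, limma, and 1.44 ± 0.12 without replicate 1). Rtp4 read 6.94, 8.02, 7.67, 6.86 and 7.36, again above every PBS brain (0.96 ± 0.23, adjusted p = 0.0222, limma, and 1.07 ± 0.23 without replicate 1). These were the only genes without overlap, where 1.42% of all genes were higher without overlap and 1.21% lower. Trim30a read 6.55, 8.17, 8.04, 7.23 and 7.67 (1.20 ± 0.24, adjusted p = 0.0064, limma, and 1.44 ± 0.21 without replicate 1). Its replicate 1 lay within the PBS range. Ddx58 was called as well (0.71 ± 0.13, adjusted p = 0.00265, limma). Ifit3 (0.94 ± 0.30), Oasl2 (0.88 ± 0.29) and Ifit1 (0.80 ± 0.25) had large differences with a wide spread and were not called.

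In BAL17 brains at day 28, 4 genes were higher than in the PBS brains of the same day and none was lower, where 6.56% of all genes were called higher and 11.5% lower (limma, Benjamini-Hochberg). The median difference was 0.15, against -0.02 over all genes. For 4 genes the implanted brains lay above all controls without overlap, as for 5.66% of all genes (Trim25, Ddx58, Bst2 and the uncalled Zbp1), and for Cmpk2 they lay below, as for 9.67% (-0.23 ± 0.10, not called). Trim25 read 7.67, 7.65, 7.68, 7.92 and 7.71, a tight group far above the controls (1.69 ± 0.16, adjusted p = 4.32e-07, limma). Ddx58 read 7.16, 6.82, 7.04, 6.83 and 7.02 (0.58 ± 0.13, adjusted p = 0.00344, limma). Bst2, which holds budding virus at the cell surface, read 7.10, 7.20, 7.14, 7.16 and 7.17 against 6.57, 6.43, 6.85, 6.62 and 6.71 (0.51 ± 0.10, adjusted p = 0.00114, limma). The implanted brains agreed closely for Bst2, and the PBS brains did not reach them. Parp14 was called at 0.53 ± 0.16. Rtp4 (0.21 ± 0.23) and Trim30a (0.62 ± 0.24, adjusted p = 0.0803, limma) were not called.

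**Figure D2:**
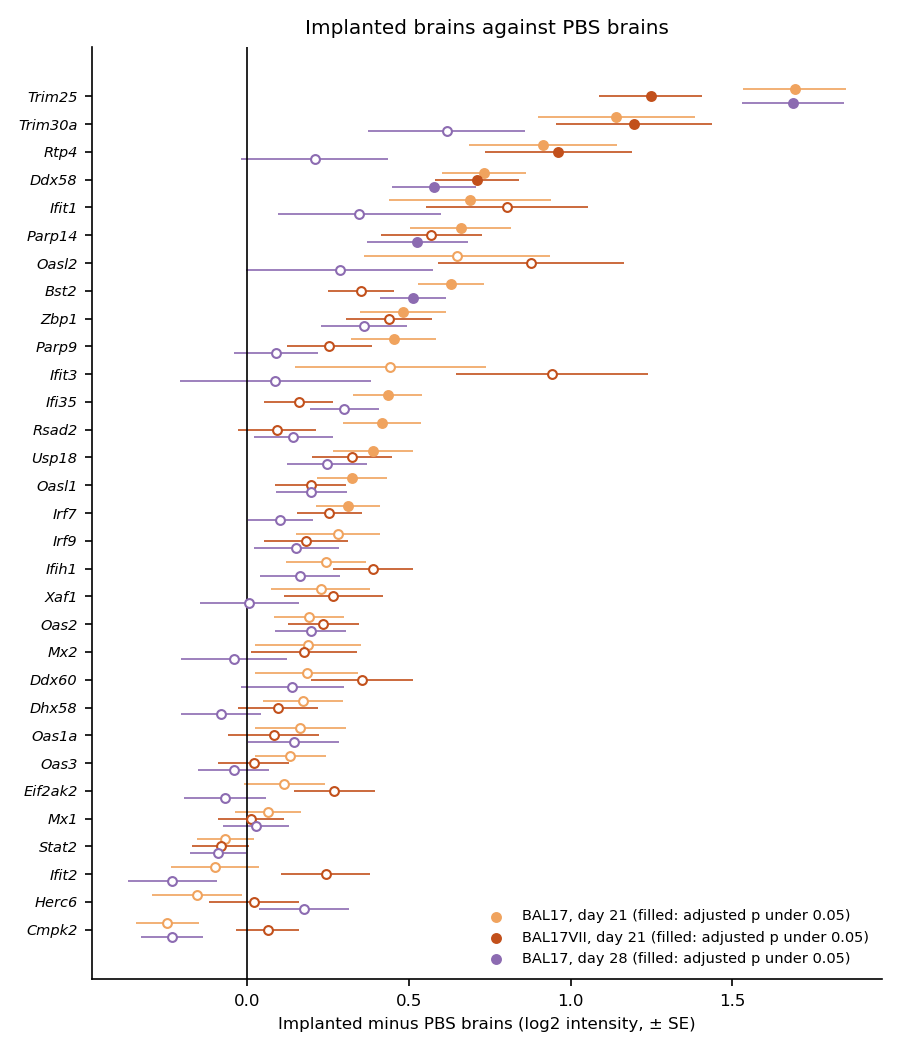
Difference of each implanted group from the PBS brains for the 31 genes (log2 intensity, points with SE, 5 brains in each group), ordered by the day 21 BAL17 difference. Filled points passed an adjusted p under 0.05, and Trim25 is filled in all 3 groups.

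These 3 comparisons share the 5 PBS brains, so their values for a gene are not independent. Markers of other cells moved beside them. Of 9 B lineage markers 8, 6 and 8, in that order of groups, were called higher in BAL17 brains at day 21, BAL17VII brains at day 21 and BAL17 brains at day 28. Of 11 monocyte and macrophage genes 6, 2 and 6 were higher. The summed intensity of that list was 1200 to 1910, 1010 to 1868 and 1141 to 2149 in the 3 implanted groups and 749 to 1032 in PBS brains. In each group 6 or 7 of its genes exceeded the array median on no array. Cultured BAL17VII cells summed to 2531 to 2985, above every brain, so the list is not particular to host cells. All 9 mitosis genes were higher in both BAL17 groups and 8 of 9 in BAL17VII brains. Of 8 plasmacytoid dendritic cell genes 2 were higher and 3 lower, none was called, and 2 were higher and 1 lower. The summed intensity of these 8 was 2806 to 3122 in BAL17 cells, 3130 to 3764 in BAL17VII cells and 2068 to 2414 in PBS brains. These counts are thus not particular to plasmacytoid dendritic cells. Of 9 microglia genes 9 were lower in BAL17 brains at day 21, none was called in BAL17VII brains and 2 were lower in BAL17 brains at day 28. Of 10 genes of T and NK cells 2 were higher, none was called, and 1 was higher and 1 lower. In each brain group 8 of these 10 exceeded the array median on no array, and the summed intensity was 470 to 566, 412 to 649 and 453 to 567 in the implanted groups and 407 to 467 in PBS brains. In BAL17 brains at day 21, 6 of 8 neuron, 6 of 7 astrocyte, 5 of 6 oligodendrocyte and 5 of 7 endothelium genes were lower. At day 28 the counts were 4, 3, 6 and 3, and in BAL17VII brains none was called. Without replicate 1 the BAL17VII brains had 8 B lineage, 9 mitosis, 4 monocyte and macrophage and 1 plasmacytoid dendritic cell genes higher, 1 endothelium gene lower and no microglia, T and NK, neuron, astrocyte or oligodendrocyte gene called. The part of these cells in the result was not tested.

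The interferon response genes varied more from brain to brain than the array did as a whole. The median SD of a gene within BAL17 brains at day 21 was 0.24 over the 31 genes and 0.16 over all genes, and within BAL17VII brains it was 0.25 and 0.17 (0.20 and 0.15 without replicate 1). In PBS brains it was 0.17 and 0.16. Ifit3 read 5.81, 7.81, 6.63, 6.54 and 6.48 in BAL17 brains at day 21 and 6.70, 8.04, 7.67, 6.23 and 7.12 in BAL17VII brains, against 6.05 to 6.42 in PBS brains. Oasl2, a relative of the Oas enzymes, read 6.14, 8.30, 6.97, 6.92 and 6.92 and then 6.32, 8.06, 7.66, 6.86 and 7.50, against 6.19 to 6.54 in PBS brains. Ifit1 read 5.68, 7.23, 6.52, 6.60 and 6.23 and then 5.99, 7.22, 7.07, 6.06 and 6.50, against 5.38 to 6.12. Replicate 2 was the highest brain of its group for all 3 genes in both lines.

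**Figure D3:**
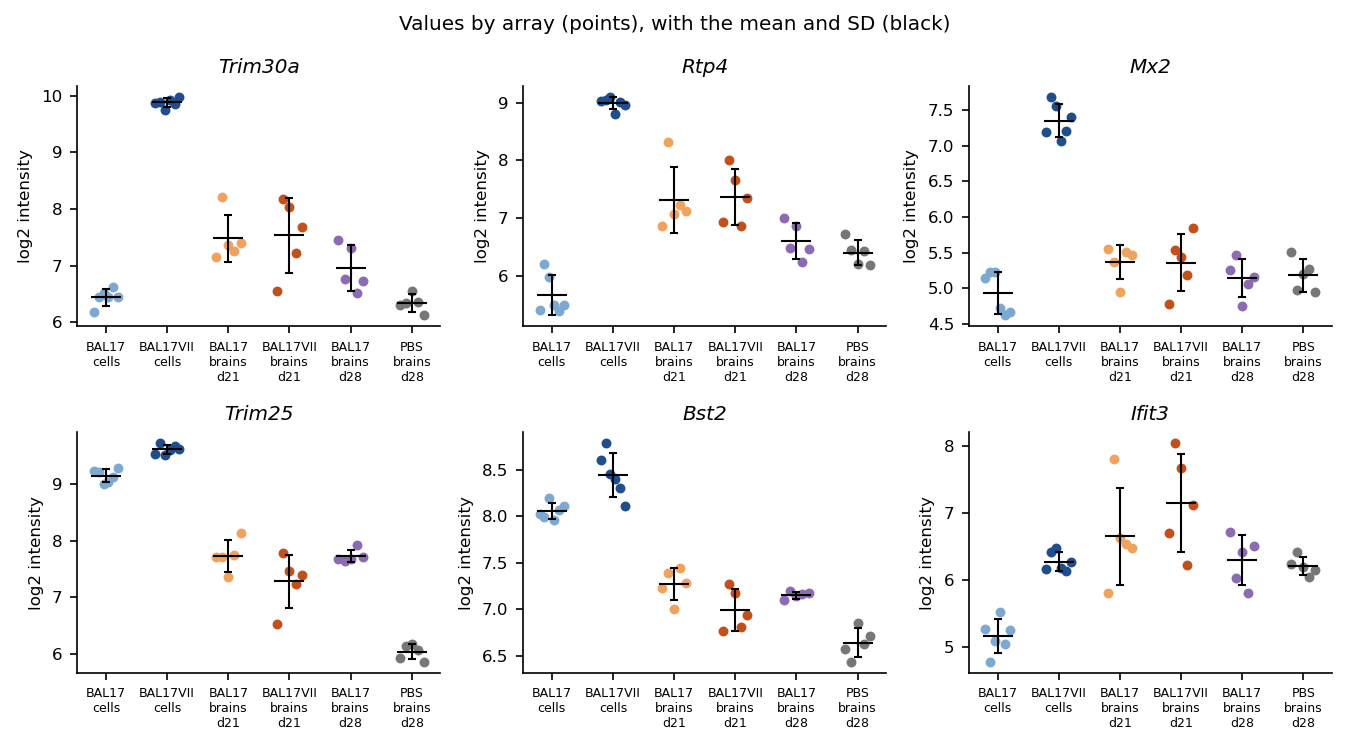
Log2 intensity of 6 interferon response genes on each array (points) with the group mean and SD (black), in cells and in brains. Trim30a, Rtp4 and Mx2 are highest in BAL17VII cells, and Ifit3 is highest in single implanted brains.

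Among the day 21 BAL17 brains, replicate 2 was the highest for 14 of 31 genes, where it was the highest for 29.7% of all genes. Among the BAL17VII brains, replicate 2 was the highest for 19 (28.9% of all genes) and replicate 1 the lowest for 23 (20.4%). The mean over the 31 genes in the BAL17VII brains was 6.13, 6.75, 6.65, 6.30 and 6.54. It was 6.31, 6.73, 6.37, 6.51 and 6.46 in BAL17 brains at day 21, and 6.47, 6.23, 6.36, 6.22 and 6.25 at day 28. PBS brains lay between 6.06 and 6.13, so each implanted brain stood above all of them. BAL17VII replicate 1, at 6.129, was the nearest to the highest PBS brain, at 6.126, and 4 of its 31 genes stood above every PBS brain and 5 below every one, where 23.4% and 19.7% of all genes did. In replicate 2, 24 stood above and 0 below, where 26.7% and 26.2% of all genes did. The B lineage mean was likewise lowest in replicate 1 (6.13) and highest in replicate 2 (7.79) of the BAL17VII brains, and the macrophage mean was 5.85 and 6.56 in these brains. In the day 21 BAL17 brains the B lineage mean was highest in replicate 3 (8.18, against 7.97 in replicate 2), and the macrophage mean (6.52) and microglia mean (7.15) were highest in replicate 2. What lies behind this variation was not tested.

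**Figure D4:**
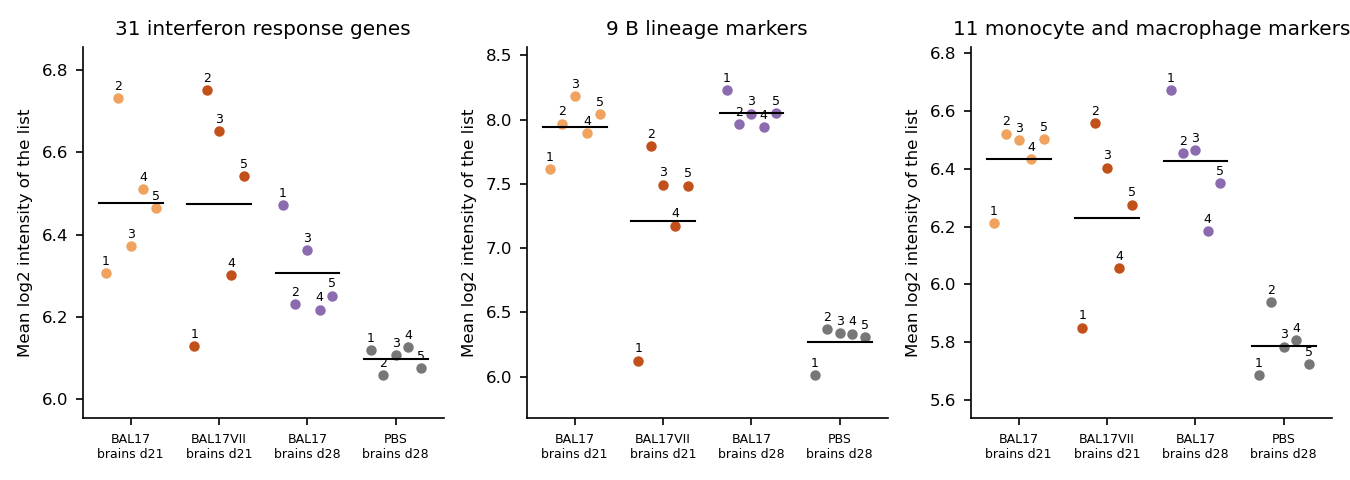
Mean log2 intensity of the 31 interferon response genes, of 9 B lineage markers and of 11 monocyte and macrophage markers in each brain (points, numbered by replicate) with the group mean (line). BAL17VII replicate 1 lies at the level of the PBS brains in the B lineage panel.

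In the brains at day 21 most differences between the lines were near 0. Between BAL17VII and BAL17 brains 1 gene was called higher and none lower, where 8.94% of all genes were called higher and 4.55% lower (limma, Benjamini-Hochberg). The median difference over the 31 genes was -0.02, against 0.00 over all genes, and the groups overlapped for every member, where 4.27% of all genes were higher and 2.89% lower without overlap. The gene called was Cmpk2 (0.31 ± 0.10, adjusted p = 0.0353, limma), whose call was lost in 8 of 18 alternatives, among them the fit without BAL17VII replicate 1. A further 5 genes had an unadjusted p under 0.05, a count for which the share of all genes was not taken. Without that replicate no member was called, and the median difference was 0.04.

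For the genes that differed most in culture, the intervals in the brains were far from the size in culture. The 95% interval of the brain difference was -0.45 to 0.56 for Trim30a, -0.43 to 0.52 for Rtp4 and -0.35 to 0.33 for Mx2. It was -0.16 to 0.50 for Ddx60 and -0.28 to 0.35 for Xaf1. Without BAL17VII replicate 1 it was -0.13 to 0.73 for Trim30a and -0.33 to 0.64 for Rtp4. These intervals do not show that the brains were alike, and they leave room for differences of up to about the bounds given. Trim25 differed by -0.45 ± 0.16 (adjusted p = 0.0662, limma), below 0, where its difference in culture was 0.46. The implanted brains of the lines also differed in their markers: in BAL17VII brains 4 of 9 B lineage, 4 of 9 mitosis and 3 of 11 monocyte and macrophage genes were lower, with or without replicate 1. Higher were 8 of 9 microglia, 6 of 7 astrocyte, 5 of 6 oligodendrocyte, 3 of 8 neuron and 3 of 7 endothelium genes, and without replicate 1 these counts were 7, 5, 3, 3 and 3. Of 8 plasmacytoid dendritic cell genes 2 were higher and 1 lower, and without replicate 1 these counts were 1 and 0.

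The difference between these differences was tested over all 32 arrays. The line difference was smaller in brains than in culture for 26 of 31 genes and larger for none, where 7.13% of all genes were called smaller and 8.43% larger (limma, Benjamini-Hochberg). The median was -0.99, against 0.01 over all genes. It was -3.38 ± 0.28 for Trim30a (adjusted p = 6.56e-11, limma), -3.27 ± 0.28 for Rtp4, -2.43 ± 0.22 for Mx2, -1.90 ± 0.20 for Ddx60 and -1.86 ± 0.20 for Xaf1. The genes not called were Zbp1, Stat2, Ifit3, Oasl2 and Cmpk2, and the call of Ifit1 was lost in 17 of 30 alternatives. Without BAL17VII replicate 1 the count was 24, where 6.24% of all genes were called smaller. The whole brain holds host tissue beside the implanted cells, and how far that share sets this result was not tested.

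**Figure D5:**
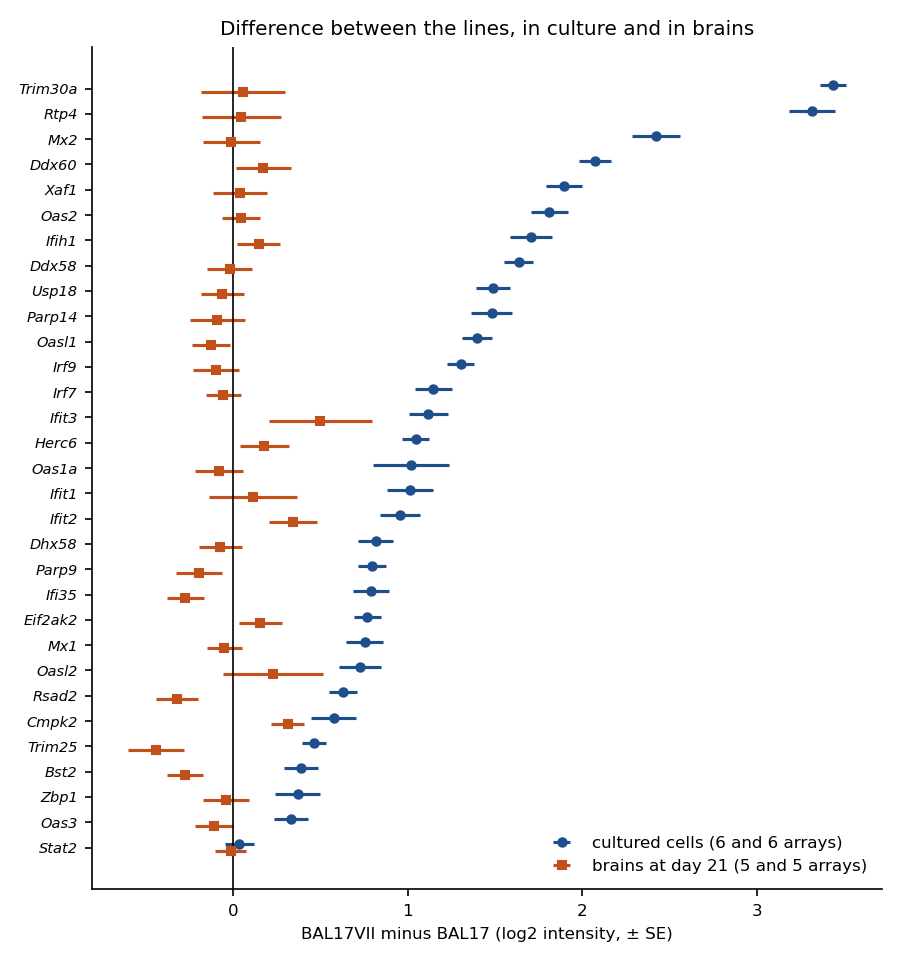
Difference between BAL17VII and BAL17 in cultured cells (circles, 6 arrays a line) and in day 21 brains (squares, 5 brains a line) for the 31 genes, as log2 intensity with SE. The circles run up to 3.44 for Trim30a, and the squares lie between -0.45 and 0.50.

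Genes outside the set with a like difference in culture were set beside the members. Of the 17 members that rose by a doubling or more in culture, with a median of 1.49, none was called higher in BAL17VII brains and the median there was 0.04. Of 168 other genes that rose as much in culture, with a median of 1.47, 25 (14.9%) were called higher in the brains and the median was 0.09. The line difference was called smaller in brains for 16 of the 17 members (94.1%) and for 163 of the other 168 genes (97%). These genes were chosen by their difference in culture, which enters this last count.

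Between day 28 and day 21 after BAL17 no interferon response gene was called in either direction, where 0.391% of all genes were called higher and 0.221% lower (limma, Benjamini-Hochberg). A total of 6 genes had an unadjusted p under 0.05, and the share of all genes was not taken for this count. The median difference was -0.14, against -0.01 over all genes. Of the 31 differences 3 were above 0, a share not taken over all genes. The largest was that of Rtp4, at -0.71 ± 0.23 with an interval of -1.18 to -0.23 (adjusted p = 0.187, limma). Trim30a differed by -0.53 ± 0.24. Irf7, at -0.21 ± 0.10, was the only member without overlap between the days, where 1.46% of all genes were lower and 2.23% higher without overlap. Trim25 differed by -0.01 ± 0.16, with an interval of -0.34 to 0.33.

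In implanted brains most of these genes lay between the level of the PBS brains and that of the cultured line. The share of all genes lying between or below was not taken, so these counts do not set this set apart. The mean in BAL17 brains at day 21 was between both for 20 of 31 genes, above both for 10 (9.29% of all genes) and below both for 1. In BAL17VII brains it was between for 27, above both for 3 (12.8% of all genes) and below for 1. At day 28 it was between for 17, above both for 10 (7.5%) and below for 4. Trim30a and Rtp4 were the only genes for which every BAL17 brain at day 21 exceeded every PBS brain and every BAL17 cell array, a pattern met by 0.266% of all genes. Rtp4 read at most 6.21 in BAL17 cells and at most 6.74 in PBS brains, and at least 6.87 in these brains. Trim30a read at most 6.62 in BAL17 cells and 6.56 in PBS brains, and at least 7.16. No gene met this in the other implanted groups, where 0.0702% and 0.155% of all genes did. Cells and brains are set side by side here without a test.

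Around the set, the interferon genes themselves showed few differences in the brains. Of 10 measured, Ifna5 was higher in BAL17 brains at day 21 (0.47 ± 0.11) and at day 28 (0.37 ± 0.11), and none was called in BAL17VII brains. The interferon alpha genes are near copies of each other, so this value is uncertain. The mean over the 10 genes was low in all brains. It was 5.50 in BAL17 brains at day 21, 5.39 in BAL17VII brains, 5.42 at day 28 and 5.36 in PBS brains. The few calls thus do not show that interferon itself was unchanged. Of 7 receptor and kinase genes only Ifngr2 was called against PBS, lower in BAL17 brains at day 21 (-0.36 ± 0.11). Of 13 genes that induce interferon 7 were higher and 1 lower in BAL17 brains at day 21, 1 was higher in BAL17VII brains and 4 were higher at day 28. Sting1 was called in all 3 groups, at 0.68 ± 0.12, 0.67 ± 0.12 and 0.69 ± 0.12, and Cgas, the DNA sensor upstream of it, was called at 0.48 ± 0.11 at day 21 and 0.34 ± 0.11 at day 28 after BAL17. Among 5 negative regulators, Ptpn6 (0.69 ± 0.14) and Socs3 (0.32 ± 0.09) were higher in BAL17 brains at day 21, and Ptpn6 (0.69 ± 0.14) was at day 28. Between the lines in the brains, Ifngr2 (0.46 ± 0.11) and Tlr3, a receptor for double-stranded RNA (0.75 ± 0.16), were higher after BAL17VII, and both were called without replicate 1. Irf5 (-0.33 ± 0.11) and Tlr9 (-0.32 ± 0.11) were lower, and neither was called without replicate 1.

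Of 44 further interferon-induced genes, 23 were higher and 4 lower in BAL17 brains at day 21, 9 were higher in BAL17VII brains (11 without replicate 1), and 9 were higher and 2 lower at day 28. Ifi203, Sp100, a nuclear body protein, and Ms4a4c were called in all 3. Ifi203 differed by 1.59 ± 0.29, 1.16 ± 0.29 and 1.50 ± 0.29, Sp100 by 1.41 ± 0.22, 1.14 ± 0.22 and 1.42 ± 0.22, and Ms4a4c by 0.89 ± 0.21, 0.96 ± 0.21 and 1.18 ± 0.21. Gm4951 was called at day 21 after BAL17 (1.62 ± 0.46), and Ifitm3, which blocks virus entry, at day 21 after BAL17 (0.94 ± 0.25) and after BAL17VII (0.96 ± 0.25). Between the lines in the brains, Slfn5 (0.66 ± 0.11), Parp12 (0.37 ± 0.12) and Tdrd7 (0.31 ± 0.10, not called without replicate 1) were higher after BAL17VII. The line difference was smaller in brains than in culture for 31 of the 44 genes (29 without replicate 1), with Slfn8 at -3.17 ± 0.23, Slfn5 at -2.39 ± 0.16 and Ifi27 at -2.21 ± 0.19.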

How the data were processed

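Total RNA of 32 samples was measured on Affymetrix mouse gene arrays. Per the labels, RNA came from frozen tissue sections in Trizol, an entry that the cell lines carry too. The authors deposited intensities on a linear scale (2.72 to 17825). Per the submitters' processing notes they used RMA and the Expression Console of Affymetrix. RMA subtracts background and forces arrays to a common distribution, which can shrink differences of dim genes. Whether lines and brains were normalized together is not given in the sources used here.

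The log2 of each deposited value was taken. Of 35556 probe sets 21789 carried 1 gene symbol, 1621 several and 12146 none. The 21789 probe sets with 1 symbol stood for 19938 genes. A mouse gene table (GRCm38.p6) held an identifier for 21698 of these probe sets. The members and lists were chosen with earlier results of these data known. Groups were compared with limma 3.58.1 in R 4.3.3 (group means, empirical Bayes, two-sided), the lines over 12 arrays, the brains over 20 and the difference of differences over all 32. No intensity filter was used, so every gene was tested. The number of arrays limits the precision. The code was tested on simulated data.

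Values by array are given for the 5 called members with the largest change and no overlap in each comparison, and of the pathway lists for fixed genes and the 3 called genes with the largest change. Other members singled out, such as Ifit3 and Oasl2, were chosen after their values were seen. Replicate numbers were not used to pair the samples in the main fits. Between the cultured lines, same-numbered arrays correlated at 0.005 to 0.181, and whether these were handled together was not tested. The alternatives were a filter at the array median, quantile normalization, median centring, an offset of 16 before log2, averaging over probe sets per gene, moderation with trend and robust settings, array weights, a replicate block, other arrays in the fit, and leaving out each array.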

Additional observations from a re-analysis of the deposited data

Results flagged for a closer look

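An array stood apart from the rest of its group in 13 of 192 sets of arrays (6.77%, where chance gives about 1 in 20), judged by its gap to the nearest array against the range of the group. Among the implanted brains, replicate 2 of BAL17 at day 21 was high for Trim30a (8.21, the others 7.16 to 7.41) and for Rtp4 (8.31, the others 6.87 to 7.22), and replicate 3 was low for Ddx58 (6.78, the others 7.16 to 7.30). In BAL17VII brains replicate 2 was high for Oasl1 (6.995) and replicate 1 low for Oas2 (5.77). At day 28 replicate 4 was high for Trim25 (7.92) and replicate 3 low for Cmpk2 (5.89). Among PBS brains replicate 1 was high for Irf9 (6.60) and replicate 2 for Cmpk2 (6.57). Among cultured cells, BAL17VII replicate 2 was high for Dhx58 (7.32) and low for Oas3 (6.26), and BAL17 replicates 5 and 6 were low for Irf9 (7.22) and Xaf1 (5.93).

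The line difference differed between brains and culture for 26 genes in limma's test of the difference of differences, always toward a smaller value in brains. Over all genes 7.13% were called smaller and 8.43% larger. Of the 168 other genes that rose by a doubling or more in culture, 163 (97%) were called smaller as well, so this direction is not particular to the set. Among the sensors the change was -1.66 for Ddx58, -1.56 for Ifih1 and -0.89 for Dhx58. Among the transcription factors it was -1.40 for Irf9 and -1.21 for Irf7. In the Ifit and Oas families it was -0.90 for Ifit1, -0.61 for Ifit2, -1.10 for Oas1a, -1.77 for Oas2, -0.45 for Oas3 and -1.53 for Oasl1. Among the other effectors it was -0.81 for Mx1, -2.43 for Mx2, -0.95 for Rsad2, -0.67 for Bst2 and -0.61 for Eif2ak2. It was -1.55 for Usp18, -0.87 for Herc6, -0.91 for Trim25 and -3.38 for Trim30a. In the rest it was -3.27 for Rtp4, -1.90 for Ddx60, -1.86 for Xaf1, -1.07 for Ifi35, -0.99 for Parp9 and -1.57 for Parp14.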

How the results depend on the processing

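No called difference changed sign under any alternative. Of the calls reported, those that held under every alternative tested were 28 of 29 between the lines, 9 of 14, 3 of 4 and 3 of 4 against PBS (BAL17 day 21, BAL17VII day 21, BAL17 day 28), 0 of 1 between the lines in brains and 23 of 26 for the difference of differences. In BAL17 brains at day 21 the intensity filter left 9 genes higher, since Zbp1, Irf7, Rsad2, Usp18 and Ifi35 did not pass it, and 1 gene (Cmpk2) was called lower under quantile normalization, under median centring and with array weights. In BAL17VII brains array weights gave 10 genes higher. Between the lines in brains, 0 genes were higher and 2 lower (Bst2 and Trim25) under the filter, 2 were higher with array weights, and 0 were higher with only these groups in the fit. The mean difference of the set between the cultured lines was 1.07 with the offset, against 1.22. The cause was not tested where none is named.

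Leaving out 1 array at a time gave 28 to 30 genes higher between the cultured lines and 0 lower. Against PBS it gave 10 to 15 higher and 0 to 1 lower for BAL17 at day 21, 3 to 10 higher and 0 lower for BAL17VII, and 3 to 5 higher for BAL17 at day 28. Between the lines in brains it gave 0 to 3 higher (3 without BAL17 replicate 2) and 0 to 3 lower (3 without BAL17VII replicate 2, 2 without BAL17 replicate 3). Between the days it gave 0, and for the difference of differences 23 to 26 smaller in brains. The share of all genes was not taken for the alternatives, except for the fits without BAL17VII replicate 1.

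Between the cultured lines 4 of 6 arrays correlated best with the array of their own number, and between brain groups 1 or 2 of 5 did. These correlations do not settle whether the arrays of the cultured lines were paired by number. With the replicate number as a block the counts of genes higher were 29, 15, 6, 5, 2 (Cmpk2 and Ifit2) and 0 in the order of the comparisons, and 25 genes had a smaller line difference in brains. The number of arrays and low intensities limit the rest.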
